A study of Arabidopsis thaliana with 6 samples.

Results

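The NAC family of Arabidopsis thaliana was taken as every gene model whose short description in the deposited table contains the words NAC domain or NAC (No Apical Meristem), in any case. This rule found 103 members among the 32678 gene models, 80 through the first phrase and 23 through the second. It used descriptions and no measured value. Gene models under other descriptions stay outside it even where they are usually counted as NAC genes, and these are given separately at the end.

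Seeds that differ in chlorophyll synthase, which joins phytol to chlorophyllide to complete the pigment, were compared by RNA-seq. The non-green group held 3 libraries of yellow seeds of genotype Atchlsyn1-1, and the green group held 3 libraries of green seeds of genotype Atchlsyn1-1/CHLSYN. All parent plants carried the mutation, so both kinds of seed developed in siliques of chlorophyll synthase mutant plants. No label gives seed age or the number of plants. Days had 16 h of illumination at 120 µE and nights lasted 8 h, at a temperature of 22 °C, and libraries were made with TruSeq from 1 µg of RNA. The labels do not say that the 3 libraries of a group came from separate plants, so the p-values measure the spread between these libraries, which may be technical. The seed coat is maternal tissue, so it has the genotype of the mother plant in both groups.

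NAC proteins are plant-specific transcription factors named after the founding genes NAM, ATAF and CUC. A conserved N-terminal domain binds DNA and holds the surface for pairing with another NAC protein, while the variable C-terminal part activates or represses target genes. Some members keep a C-terminal membrane anchor and reach the nucleus only after they are cut loose. In Arabidopsis the family is known for organ boundaries, wood-like cell walls, integument and seed coat development, leaf senescence and responses to drought, oxidative stress and mitochondrial stress.

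Library totals lay between 16438639 and 16745514 counts. The targeted gene CHLG, chlorophyll synthase, had 11, 6 and 9 counts in the non-green libraries, against 46, 50 and 65 in the green libraries, with a log2 fold change of -2.69 ± 0.36 (adjusted p = 1.32e-09, edgeR). Here and below, ± after a log2 fold change is its standard error. The groups did not overlap for CHLG, and it was lower in the seeds labelled yellow. Of 17239 genes tested, 4593 were called at an adjusted p under 0.05, and 53.2% of those calls were higher in non-green seeds. Scaling by total counts instead raised that share to 70.5%. The median log2 fold change over all tested genes was 0.00.

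Reads were found in seeds for most NAC genes, but their levels were mostly low. At least 1 count was found for 76 of the 103 members (73.8%), and 27 members had no count in any library. A level of at least 1 CPM (counts relative to the library's total, which was scaled here with TMM factors) in all 3 libraries of a group was reached by 45 members. The mean over the 6 libraries was at least 1 RPKM, the read density scaled for gene length and library total as the authors deposited it, for 43 members and at least 10 RPKM for 27. A filter on low counts left 47 of the 103 members in the test, beside 17239 of all 32678 gene models. Another 29 members had counts but stayed under the filter. The highest total of an untested member was 47 counts over the 6 libraries. A count of 0 in a library still allows about 3 counts, or 0.179 to 0.182 CPM before TMM scaling, so the 27 members without counts are below detection at this depth and not shown to be absent. They include SND1, NST1, NST2 and SND2, which switch on secondary walls in fibres and other tissues, BRN1 of the root cap, and ORS1, a driver of leaf senescence.

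On the length-scaled RPKM measure ATAF1 had the highest level of the family, with a mean of 219 RPKM in non-green and 154 RPKM in green seeds. ANAC080 came next at 105 RPKM in non-green and 139 RPKM in green seeds, followed by ANAC055 at 80.6 RPKM in non-green and 93.3 RPKM in green seeds. NAC041, NARS2, ANAC078, NARS1 and ANAC032 completed the first 8. NARS2 averaged 53.7 RPKM in non-green and 72.5 RPKM in green seeds, and ANAC078 averaged 48.2 RPKM in non-green and 45.0 RPKM in green seeds. Of these 8 genes, ANAC078 alone was not called different between the groups.

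**Figure D1:**
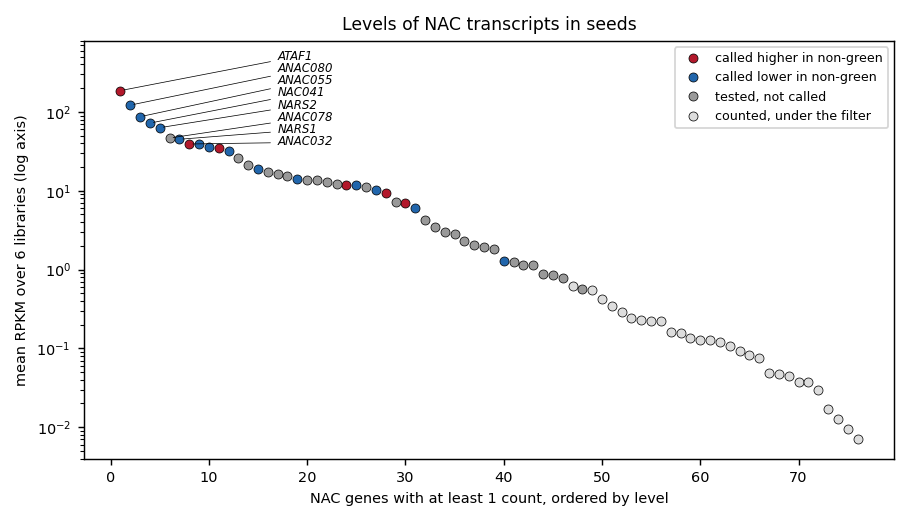
Mean RPKM over the 6 libraries (log axis) of the 76 NAC genes with at least 1 count, ordered by level, with colour giving the call in non-green over green seeds. ATAF1 and ANAC080 lead, 27 genes lie at 10 RPKM or more, and the 29 genes under the filter on low counts fill the lower end.

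Non-green seeds had 6 NAC genes higher and 14 lower than green seeds, and 27 tested members were not called. The calls covered 42.6% of the tested members, while 26.6% of all tested genes were called. Higher calls made up 12.8% of the tested members against 14.2% of all tested genes, so their share was near that of the transcriptome. Lower calls made up 29.8% of the tested members against 12.5% of all tested genes. NAC genes in the test were not matched to other genes by level: among members with a mean of at least 10 RPKM 16 of 27 were called, 4 higher and 12 lower, while 43.2% of all genes at that level were called. Below that level 4 of 20 tested members were called. Shares of all genes below that level, or by direction at or above it, were not computed. The lower calls are therefore not compared with genes of like level.

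The sizes were modest. The called log2 fold changes ran from -0.96 to 0.82, none reached 2-fold and 5 reached 1.5-fold. The median of all tested members was -0.14. The CPM values of non-green and green libraries did not overlap for any of the 20 called members, which are 42.6% of the tested members. This was usual for a called gene: of the 4593 called among all tested genes, 4322 had no overlap either. Those 4322 are 25.1% of all tested genes. Summed over all members, NAC transcripts came to 1484 ± 6.63 CPM in non-green and 1568 ± 16.9 CPM in green seeds (SD, n = 3 each), a difference that was not tested. Those sums are TMM-scaled. Before that scaling the family took 0.152% of counts (0.149 to 0.154%) in non-green and 0.153% (0.150 to 0.156%) in green seeds, and these ranges overlapped. In whole seeds, fewer cells of a type and less RNA per cell cannot be told apart.

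**Figure D2:**
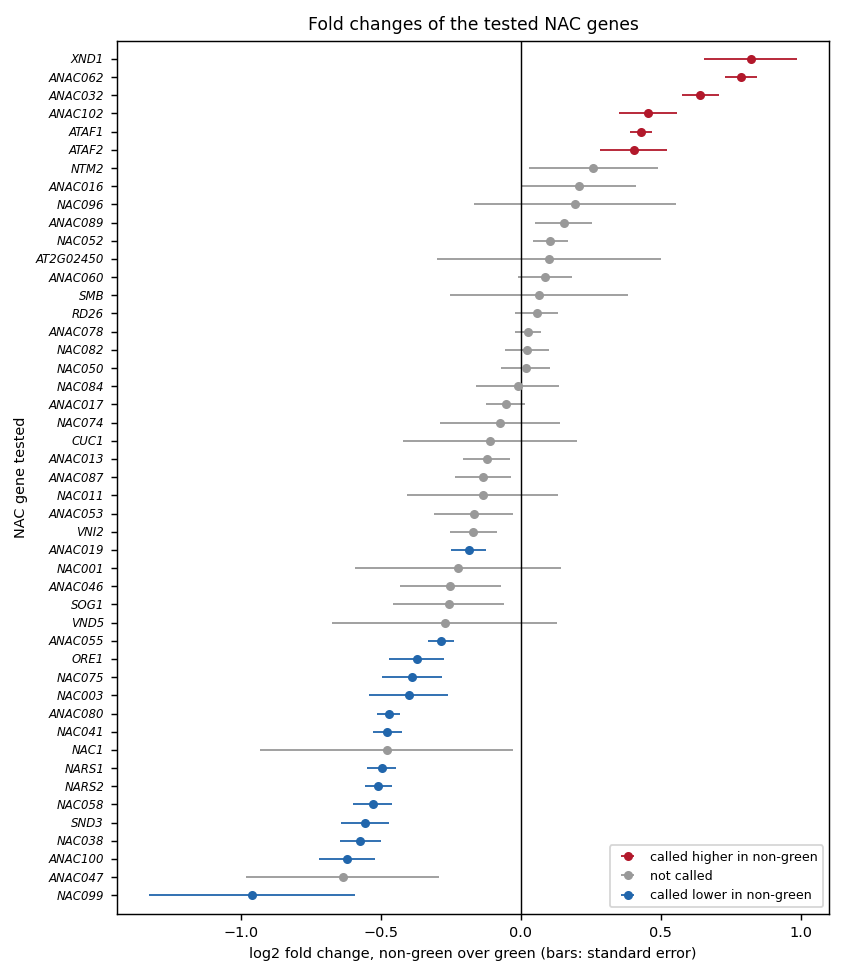
Log2 fold change, non-green over green, of each of the 47 tested NAC genes with its standard error, ordered by value and coloured by the edgeR call. Called genes lie between -0.96 and 0.82, and genes that were not called lie between -0.64 and 0.26.

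The genes higher in non-green seeds included all 4 genes of the ATAF subfamily, ATAF1, ATAF2, ANAC032 and ANAC102, which are known from leaves and seedlings as stress-responsive regulators. This grouping of 4 was made after their values were seen. ATAF1 (AT1G01720; chromosome 1, 267993 to 269819, TAIR10.1) had 280, 276 and 286 CPM in non-green seeds, against 212, 211 and 202 CPM in green seeds. Every non-green library lay above every green one, by 1.35-fold on average (log2 fold change 0.43 ± 0.04; edgeR adjusted p = 6.9e-16). ANAC032, which acts with ANAC102 in the detoxification response of leaves to oxidised carotenoid products, had 52.3, 54.9 and 51.9 CPM in non-green seeds, against 33.8, 31.1 and 37.0 CPM in green seeds. Its fold was 1.56, with a log2 fold change of 0.64 ± 0.07 (adjusted p = 9.89e-14, edgeR) and no overlap between the groups.

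ANAC102 and ATAF2 were lower in level and moved by similar amounts. ANAC102 had 18.6, 17.2 and 18.6 CPM in non-green seeds, against 13.5, 13.3 and 12.8 CPM in green seeds (log2 fold change 0.46 ± 0.10; edgeR adjusted p = 0.00025). ATAF2 averaged 13.0 ± 0.429 CPM in non-green and 9.83 ± 0.812 CPM in green seeds (SD, n = 3 each; log2 fold change 0.40 ± 0.12; edgeR adjusted p = 0.00673). The ATAF2 call was lost without green replicate 2, where the edgeR adjusted p was 0.0563. On the opposite strand, ATAF1 overlaps a long non-coding RNA by 344 bases, which is no row of the deposited table, and a coding neighbour by 28 bases. ATAF2 and ANAC102 overlap a coding neighbour by 158 and 85 bases. No source says whether counting used strand, and without it reads of such partners cannot be told apart.

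The 250 bases before the annotated gene start are shown for ANAC032 and ANAC102, the only pair of this subfamily whose windows were compared for a shared string. Both are 5′ to 3′ on the gene's strand in RefSeq TAIR10.1, at chr1:29099589-29099838 (plus strand) for ANAC032 and chr5:25528282-25528531 (minus strand) for ANAC102, and capitals mark the shared string TGACGTANGCAAT.
ANAC032: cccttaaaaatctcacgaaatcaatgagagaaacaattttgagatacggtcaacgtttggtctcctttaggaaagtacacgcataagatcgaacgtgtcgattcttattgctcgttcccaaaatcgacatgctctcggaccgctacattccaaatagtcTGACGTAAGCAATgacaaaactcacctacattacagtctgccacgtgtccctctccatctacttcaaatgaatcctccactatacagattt
ANAC102: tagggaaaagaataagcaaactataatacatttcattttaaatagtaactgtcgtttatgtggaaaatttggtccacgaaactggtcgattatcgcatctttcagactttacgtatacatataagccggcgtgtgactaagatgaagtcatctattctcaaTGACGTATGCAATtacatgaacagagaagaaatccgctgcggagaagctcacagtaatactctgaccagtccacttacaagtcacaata

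That string was taken as the longest run the windows share with at most 1 differing base, a comparison made after both had been read. It occurs, on either strand, in 2 of 26712 windows of the same length (0.00749%). Those are the windows it was taken from, which hold it by construction, so the count is no test of a shared element. The string contains TGACG, the core bound by TGA-type bZIP factors. That core lies on either strand in 18.6% of all windows, in 2 of the 6 higher and in 4 of the 14 lower NAC genes. The core ACGTG, found in many abscisic acid response elements, is in 23.1% of all windows, 2 of the 6 higher and 3 of the 14 lower genes. The W-box core TTGAC is in 44.9% of all windows, 3 of the 6 higher and 5 of the 14 lower genes. The windows of ATAF1 and ATAF2 hold neither TGACG nor ACGTG.

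ANAC062 had the largest fold change among called members with a mean of at least 10 RPKM. It encodes a membrane-bound factor that is released under cold and endoplasmic reticulum stress (AT3G49530; chromosome 3, 18362443 to 18364959, TAIR10.1). It had 81.4, 81.5 and 74.5 CPM in non-green seeds, against 45.6, 46.5 and 45.4 CPM in green seeds. The lowest non-green library lay well above the highest green one, and the fold was 1.73 (log2 fold change 0.79 ± 0.06; edgeR adjusted p = 1.74e-21). The list of membrane-bound NAC genes holds 14, of which 9 are in the family by the rule. All 9 were tested, 1 was higher, none was lower and 8 were not called, while 14.2% of all tested genes were higher. Over the whole list 13 were tested, 3 were higher, none was lower and 10 were not called. The median log2 fold change was 0.09 beside 0.00 for all tested genes. The other higher genes on the list, TIP and NTM1, fall outside the family rule and are described at the end. Among the members not called, ANAC017 and ANAC013, the endoplasmic reticulum-anchored regulators of mitochondrial retrograde signalling, had log2 fold changes of -0.05 ± 0.07 and -0.12 ± 0.09 (edgeR adjusted p = 0.636 and 0.324). ANAC053, which responds to proteasome stress with ANAC078, had -0.17 ± 0.14 (edgeR adjusted p = 0.426).

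Of 7 mitochondrial retrograde response genes, 3 could be tested and none was called. AOX1A, the alternative oxidase, had a log2 fold change of -0.27 ± 0.12 (adjusted p = 0.0954, edgeR). OM66, an outer mitochondrial membrane protein, had 0.71 ± 0.33 (edgeR adjusted p = 0.101). ANAC078 itself, a proteasome stress regulator that also raises flavonoid genes under high light, had 103, 102 and 104 CPM in non-green seeds, against 109, 97.5 and 97.8 CPM in green seeds. Its non-green libraries lay within the range of the green ones, with a log2 fold change of 0.03 ± 0.05 (adjusted p = 0.758, edgeR).

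The last of the higher genes was XND1, a negative regulator of xylem vessel differentiation (AT5G64530, chromosome 5, 25794957 to 25797031, TAIR10.1). XND1 had the highest positive fold change among the tested members. It had 8.36, 7.64 and 8.52 CPM in non-green seeds, against 5.50, 4.76 and 3.61 CPM in green seeds, a fold of 1.77 (log2 fold change 0.82 ± 0.17; edgeR adjusted p = 3.89e-05). Its groups did not overlap, and the green libraries differed more among themselves than the non-green ones.

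**Figure D3:**
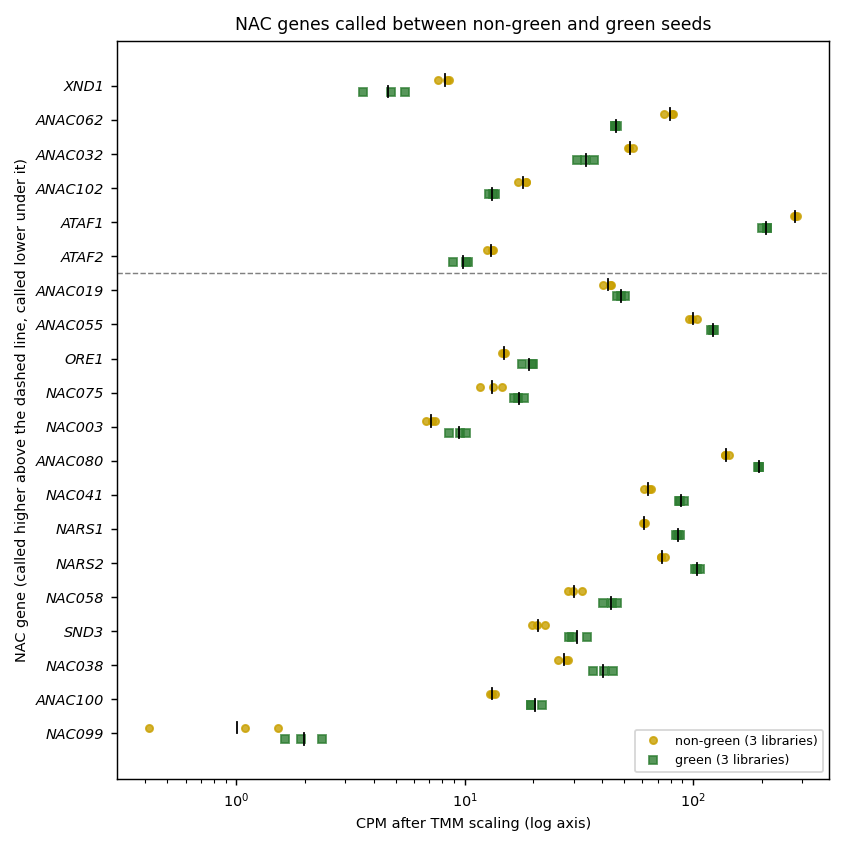
CPM of the 20 called NAC genes in each library (log axis), with non-green points drawn above green points and bars at the means. The 6 higher genes and the 14 lower genes have no overlap between the groups, and NAC099 shows the widest scatter, from 0.417 CPM in a non-green library.

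Other members of the secondary wall and xylem group gave few values. The list held 14 genes, 10 of them in the family by the rule; 4 were tested, and their median log2 fold change was -0.22. SND3, a secondary wall activator, had 20.9, 19.7 and 22.6 CPM in non-green seeds, against 28.7, 29.6 and 34.5 CPM in green seeds (log2 fold change -0.56 ± 0.08; edgeR adjusted p = 6.84e-08). VND5, a vessel regulator, had -0.27 ± 0.40 (edgeR adjusted p = 0.688) and VNI2, a repressor of vessel formation, had -0.17 ± 0.09 (edgeR adjusted p = 0.143). Of 8 secondary wall target genes, 3 were tested and none was called, and the wall regulators MYB46 and MYB83 had no counts. CESA8, a cellulose synthase subunit of secondary walls, had a log2 fold change of -0.69 ± 0.46 (adjusted p = 0.298, edgeR). NAC075, which promotes vessel formation and was not on that list, was lower at 13.3, 11.7 and 14.7 CPM in non-green seeds, against 17.2, 16.4 and 18.3 CPM in green seeds (log2 fold change -0.39 ± 0.11; edgeR adjusted p = 0.0028).

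The genes lower in non-green seeds included both tested members of the seed and seed coat group, NARS1 and NARS2, which act together in the integuments to shape the seed coat and support embryo growth. The deposited table lists them as NAC2 and NAM. NARS2 (AT1G52880; chromosome 1, 19688708 to 19690589, TAIR10.1) had 72.7, 72.3 and 75.3 CPM in non-green seeds, against 102, 108 and 104 CPM in green seeds (log2 fold change -0.51 ± 0.05; edgeR adjusted p = 5.03e-15). NARS1 (AT3G15510; chromosome 3, 5243432 to 5245510, TAIR10.1) had 60.3, 61.0 and 61.5 CPM in non-green seeds, against 87.6, 85.9 and 84.5 CPM in green seeds (log2 fold change -0.50 ± 0.05; edgeR adjusted p = 1.64e-13). Both genes had tight replicates and a wide gap between the groups. NAC1L and NAC25, the other members of this group, had at most 2 counts in any library.

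Some seed coat markers were lower in non-green seeds, as were NARS1 and NARS2. Of 16 markers, 14 were tested, 8 were lower, none was higher and 6 were not called, while 12.5% of all tested genes were lower. The markers had a median log2 fold change of -0.44 beside 0.00 for all tested genes. Their summed level was 1005 to 1026 CPM in non-green and 1361 to 1411 CPM in green seeds, and no marker was at 0 in all libraries. TT2, a regulator of tannin synthesis, had the largest fold change of the 14 and lay on the other side, with 22, 11 and 16 counts in non-green libraries, against 7, 13 and 4 in green libraries (log2 fold change 0.94 ± 0.49; edgeR adjusted p = 0.159). GL2, a regulator of mucilage production in the seed coat epidermis, averaged 52.4 ± 2.34 CPM in non-green and 97.1 ± 3.41 CPM in green seeds (SD, n = 3 each; log2 fold change -0.89 ± 0.05; edgeR adjusted p = 5.46e-26). STK, an ovule identity gene that stays active in the seed coat, averaged 84.2 ± 3.09 CPM in non-green and 126 ± 4.10 CPM in green seeds (log2 fold change -0.58 ± 0.05; edgeR adjusted p = 8.75e-19). The part of seed coat content in the lower NAC genes was not tested.

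Markers of other seed and fruit tissues were called in both directions, and some were not called. Endosperm markers that were tested had a median log2 fold change of -0.41, beside -0.44 for the seed coat markers. Of 11 endosperm markers 5 were tested, 3 were lower and none was higher, and PHE1 and MINI3 were at 0. Their summed level was 13388 to 14880 CPM in non-green and 12622 to 14588 CPM in green seeds, nearly all of it from EPR1, and without EPR1 it was 10.9 to 11.6 CPM in non-green and 14.4 to 20.3 CPM in green seeds. Of 7 silique wall markers 5 were tested, FIL and YAB3 were higher at a log2 fold change of 0.22 each, none was lower and FUL was at 0. Their summed level was 88.4 to 105 CPM in non-green and 84.9 to 91.4 CPM in green seeds. Of 7 embryo and seed storage markers, 3 were higher, 2 lower and 2 not called, with a summed level of 248919 to 259045 CPM in non-green and 279843 to 290890 CPM in green seeds. The part of these tissues in the NAC values was not tested.

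NARS2 and NARS1 each have a stress-related NAC gene as neighbour, and those neighbours were lower as well. ANAC019 lies on the same strand as NARS2 at a distance of 6333 bases, and ANAC055 lies 7235 bases from NARS1. ANAC055, which responds to abscisic acid and jasmonate, had 105, 99.4 and 96.2 CPM in non-green seeds, against 123, 120 and 124 CPM in green seeds (log2 fold change -0.29 ± 0.05; edgeR adjusted p = 2.39e-07). ANAC019, its close relative, had 43.9, 40.2 and 43.5 CPM in non-green seeds, against 50.6, 48.2 and 46.4 CPM in green seeds (log2 fold change -0.19 ± 0.06; edgeR adjusted p = 0.0185). The ANAC019 call was lost with scaling by total counts (edgeR adjusted p = 0.213), without non-green replicate 2 (edgeR adjusted p = 0.121) and without green replicate 1 (edgeR adjusted p = 0.111). RD26, the third gene of this trio, was not called (log2 fold change 0.06 ± 0.08; edgeR adjusted p = 0.655).

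A set of NAC messages is cut by miR164, a microRNA that pairs with a site in the NAC coding sequence and limits their levels at organ boundaries and in ageing leaves. The mature forms and the best matching sites are shown because 3 of the lower genes carry them. The microRNAs are read from RefSeq TAIR10.1 at chr2:19520770-19520790 (plus strand) for miR164a, chr5:287586-287606 (plus strand) for miR164b-5p and chr5:9852684-9852704 (plus strand) for miR164c-5p, with the seed, bases 2 to 8, in capitals and DNA letters.
miR164a: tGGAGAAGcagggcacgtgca
miR164b-5p: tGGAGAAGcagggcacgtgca
miR164c-5p: tGGAGAAGcagggcacgtgcg

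The sites below are 5′ to 3′ on the gene's strand, and capitals mark bases that differ from the perfect complement of the closest mature form, which is miR164c-5p for ORE1 and miR164a, or as close, for the others. They lie at chr5:2436958-2436978 (plus strand) for ANAC080, chr5:24701687-24701707 (minus strand) for ANAC100, chr5:15858797-15858817 (minus strand) for ORE1, chr1:20947142-20947162 (minus strand) for NAC1, chr3:5111137-5111157 (plus strand) for CUC1, chr5:21902301-21902321 (minus strand) for CUC2 and chr3:4145631-4145651 (plus strand) for NAC1L, each within 1 exon of the coding sequence.
ANAC080: tTTacgtgccctgcttctcca
ANAC100: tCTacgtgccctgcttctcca
ORE1: cTcacgtgAcctgcttctccG
NAC1: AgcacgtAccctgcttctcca
CUC1: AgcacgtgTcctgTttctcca
CUC2: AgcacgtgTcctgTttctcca
NAC1L: AgcaTgtAccctgcttctcca

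With up to 4 mismatches allowed, such a site was found in 7 of the 103 members (6.80%) and in 11 of 26712 coding sequences of the nuclear genome (0.0412%). ANAC080, ANAC100 and NAC1 have 2 mismatches to their closest form and the others have 3. ORE1 has 4 mismatches to miR164a. A match is a description of letters and not evidence of cleavage in these seeds. The 3 MIR164 loci are rows of the deposited table and had 0 counts in all libraries, and mature microRNAs were not measured. NAC1L is not among the 6 genes of the list of known targets.

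Of the 6 listed miR164 targets 5 were tested, 3 were lower in non-green seeds and 2 were not called. Lower calls made up 12.5% of all tested genes and 29.8% of tested members. The median log2 fold change of the 5 targets was -0.47 beside 0.00 for all tested genes. ANAC080 (AT5G07680; chromosome 5, 2435795 to 2437661, TAIR10.1) had 138, 144 and 138 CPM in non-green seeds, against 193, 196 and 195 CPM in green seeds (log2 fold change -0.47 ± 0.04; edgeR adjusted p = 7.46e-17). ANAC100, a close relative of ANAC080, had 13.5, 13.1 and 12.9 CPM in non-green seeds, against 19.5, 21.7 and 19.6 CPM in green seeds (log2 fold change -0.62 ± 0.10; edgeR adjusted p = 3.53e-07). ORE1, a driver of leaf senescence, had 14.6, 14.9 and 15.0 CPM in non-green seeds, against 19.8, 17.9 and 19.9 CPM in green seeds (log2 fold change -0.37 ± 0.10; edgeR adjusted p = 0.00213). None of the 3 had overlapping groups, and 37.3% of all tested genes had no overlap either. Summed over the listed targets, the level was 168 to 175 CPM in non-green and 236 to 238 CPM in green seeds, most of it from ANAC080.

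The remaining targets were scarce. CUC1, an organ boundary gene, had 26, 37 and 30 counts in non-green libraries, against 41, 26 and 28 in green libraries (log2 fold change -0.11 ± 0.31; edgeR adjusted p = 0.845). NAC1, known from lateral root formation, had 12, 8 and 14 counts in non-green libraries, against 14, 14 and 17 in green libraries (log2 fold change -0.48 ± 0.45; edgeR adjusted p = 0.492). CUC2 had 1, 4 and 8 counts in non-green libraries, against 7, 6 and 7 in green libraries, and was not tested. At these counts a difference of the size seen for ANAC080 was not detectable. The organ boundary and root tip group as a whole had 3 of 8 genes tested and none called. CUC3 had 5, 17 and 12 counts in non-green and 4, 7 and 2 in green libraries, and FEZ, a root cap stem cell gene, had 7, 6 and 9 counts in non-green and 0, 0 and 7 in green libraries, both untested.

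The stress and senescence group moved in both directions. Of its 17 listed genes 16 are in the family by the rule and 11 were tested. Of these 11, 4 were higher, 3 were lower and 4 were not called. Among all tested genes 14.2% were higher and 12.5% lower. The group's median log2 fold change was -0.14, the same as over all tested members, beside 0.00 for all tested genes. The higher genes were the 4 ATAF-type genes and the lower ones were ORE1, ANAC019 and ANAC055. ANAC046, a promoter of chlorophyll breakdown in leaves, had a log2 fold change of -0.25 ± 0.18 (adjusted p = 0.337, edgeR). ANAC047 had -0.64 ± 0.35 (edgeR adjusted p = 0.18), the lowest value among members that were not called. JUB1, a negative regulator of leaf senescence, had 0, 0 and 1 counts in non-green and 0, 0 and 3 in green libraries.

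Genes of chlorophyll breakdown and senescence also went both ways. Of 10 tested, 3 were higher, 4 were lower and 3 were not called, while 26.6% of all tested genes were called. Their median log2 fold change was 0.01. NYE2, which removes magnesium from chlorophyll, averaged 65.8 CPM in non-green and 40.9 CPM in green seeds (log2 fold change 0.69 ± 0.06; edgeR adjusted p = 8.3e-16). SAG113, a protein phosphatase controlled by the senescence factor NAP in leaves, averaged 139 CPM in non-green and 180 CPM in green seeds (log2 fold change -0.38 ± 0.04; edgeR adjusted p = 1.32e-12). SAG12, a senescence protease, had 20, 18 and 27 counts in non-green and 0, 1 and 2 in green libraries, a ratio of 20.5 with a 95% counting interval of 6.71 to 102 (edgeR adjusted p = 4.82e-07). The interval covers counting error only.

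Direct targets described for ATAF1 and JUB1 were also looked up. Of 4 genes, 1 was called. DREB2A, a drought and heat transcription factor activated by JUB1, averaged 42.4 ± 1.97 CPM in non-green and 23.6 ± 2.45 CPM in green seeds (SD, n = 3 each; log2 fold change 0.85 ± 0.08; edgeR adjusted p = 2.7e-16). The ATAF1 targets TRE1, a trehalase, and GLK1, a chloroplast development factor, had log2 fold changes of -0.07 ± 0.07 and 0.32 ± 0.49 (edgeR adjusted p = 0.517 and 0.698), and the abscisic acid synthesis gene NCED3 was not called either.

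Among the other lower genes, 5 carry no group in the lists and no role is given for them here. NAC041 had 65.6, 64.4 and 61.0 CPM in non-green seeds, against 91.5, 87.0 and 87.4 CPM in green seeds (log2 fold change -0.48 ± 0.05; edgeR adjusted p = 8.53e-13). NAC038 had 25.6, 28.5 and 27.7 CPM in non-green seeds, against 44.5, 40.6 and 36.5 CPM in green seeds (log2 fold change -0.57 ± 0.07; edgeR adjusted p = 7.38e-10). NAC058 had 28.5, 32.6 and 29.8 CPM in non-green seeds, against 44.2, 46.6 and 40.3 CPM in green seeds (log2 fold change -0.53 ± 0.07; edgeR adjusted p = 1.78e-09). All 3 were clearly separated between the groups.

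NAC003 and NAC099 rest on weaker evidence. NAC003 had 7.43, 7.18 and 6.79 CPM in non-green seeds, against 8.58, 9.52 and 10.1 CPM in green seeds (log2 fold change -0.40 ± 0.14; edgeR adjusted p = 0.0253). It shares an exact run of 58 coding bases with NAC005, so reads could be split between them, while no other called member shares more than 33 bases with another gene. Its call was lost under 6 of 12 alternatives, with adjusted p of 0.0564 in DESeq2, 0.0818 in edgeR with total counts, and 0.0514, 0.0815, 0.0587 and 0.111 in edgeR without non-green replicates 2 and 3 and green replicates 2 and 3. NAC099 had 19, 26 and 7 counts in non-green libraries, against 31, 26 and 39 in green libraries (log2 fold change -0.96 ± 0.37; edgeR adjusted p = 0.0419). Its call was lost under 6 alternatives too, with adjusted p of 0.0882 in DESeq2, 0.0626 in edgeR with total counts, and 0.0746, 0.286, 0.0817 and 0.185 in edgeR without non-green replicates 1 and 3 and green replicates 1 and 3. Without non-green replicate 3 its log2 fold change was -0.60. It also overlaps a gene on the opposite strand by 535 bases. In the authors' deposited table NAC099 had a log2 fold change of -0.58 with an adjusted p of 0.067.

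The authors' deposited table called 6 members higher and 13 lower at the same threshold. These 19 were called here too, with the same sign, and NAC099 was called here only.

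The remaining members that were tested showed no call. SOG1, the DNA damage regulator, had a log2 fold change of -0.26 ± 0.20 (adjusted p = 0.381, edgeR). Of 5 SOG1 targets 2 were tested: SMR5, a cell cycle inhibitor, averaged 31.7 ± 2.33 CPM in non-green and 23.5 ± 2.52 CPM in green seeds (log2 fold change 0.43 ± 0.08; edgeR adjusted p = 1.7e-05), and PARP2 was not called (log2 fold change 0.28 ± 0.20; edgeR adjusted p = 0.336). NAC050 and NAC052, neighbouring genes that work with a histone demethylase, had log2 fold changes of 0.02 and 0.11, and NAC052 was called once counts were scaled by library totals alone. ANAC089 and ANAC060, membrane-bound factors in sugar signalling, had 0.15 ± 0.10 and 0.09 ± 0.10 (edgeR adjusted p = 0.29 and 0.581). NAC082 and ANAC087 lay at similar levels of 14.2 and 10.8 RPKM in non-green seeds, against 13.3 and 11.3 RPKM in green seeds, with log2 fold changes of 0.02 ± 0.08 and -0.14 ± 0.10 (edgeR adjusted p = 0.87 and 0.351). SMB, a root cap factor, was near the lower end of the tested members at 1.21 RPKM in non-green and 1.10 RPKM in green seeds (log2 fold change 0.07 ± 0.32; edgeR adjusted p = 0.911).

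**Figure D4:**
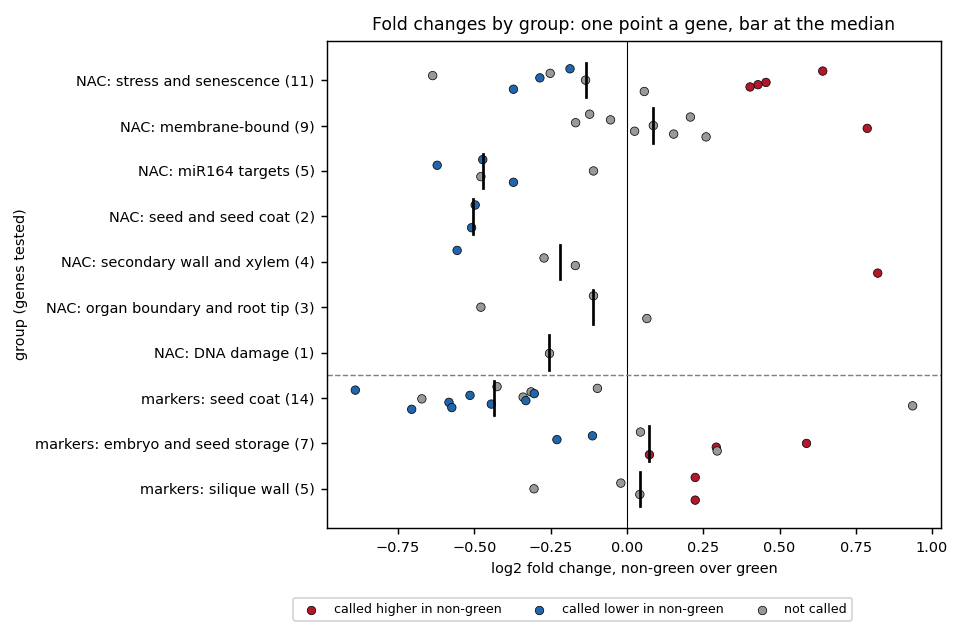
Log2 fold change, non-green over green, of the tested genes of each NAC group, 1 point a gene, with a bar at the median. Marker lists drawn are seed coat, embryo and seed storage, and silique wall. Endosperm markers (5 tested, median -0.41) are not drawn. The seed coat group (2 genes tested) and the miR164 targets (5 tested) have medians of -0.50 and -0.47, and the seed coat markers -0.44. The stress and senescence group has genes on both sides of 0.

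Some well-known NAC genes carry other descriptions in the table and fall outside the rule. TIP, a membrane-bound factor which binds the coat protein of turnip crinkle virus, had 2924, 2922 and 2821 counts in non-green libraries, against 1919, 1745 and 1848 in green libraries. It averaged 169 ± 1.32 CPM in non-green and 114 ± 4.62 CPM in green seeds (SD, n = 3 each; log2 fold change 0.57 ± 0.04; edgeR adjusted p = 2.63e-20). NTM1, a membrane-bound regulator of cell division, averaged 5.70 ± 0.998 CPM in non-green and 3.65 ± 0.441 CPM in green seeds (log2 fold change 0.64 ± 0.19; edgeR adjusted p = 0.00727). The senescence factor NAP had a log2 fold change of -0.41 ± 0.17 (adjusted p = 0.0602, edgeR), and ANAC014 and NTL9 were not called.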

How the data were processed

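RNA-seq of 3 non-green and 3 green seed samples was used. The submitters' processing notes name Bowtie 0.12.2 and TAIR10; the counter, annotation, read length and strand use are not named. The authors deposited raw counts per gene model and RPKM. Each of 29216 RPKM values checked gave a whole gene length within 0.1 base. The deposited table also holds the authors' comparison, per the file headers a signal (mean level), log2 fold changes, a test score and p-values.

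Here counts were filtered with filterByExpr and tested with edgeR 4.0.16 (R 4.3.3; TMM factors 0.959 to 1.04, quasi-likelihood test, non-green over green, Benjamini-Hochberg adjustment over 17239 genes, threshold 0.05). The tested genes held at least 99.9% of counts. The common variation between libraries beyond counting error, as edgeR estimates it, was 5.68% and may be technical. Fold changes are from the fit; CPM values are TMM-scaled and RPKM are as deposited. The fit was tested on simulated data. Alternatives were RLE and total-count scaling, DESeq2 1.42.0, no filter, at least 1 CPM in 3 libraries, a replicate block and leaving out each library. Replicate numbers did not pair the samples (same-number correlations 0.0133, 0.00385 and -0.00140). Sequences came from RefSeq TAIR10.1, in which 103 of 103 members matched by locus. Named genes were CHLG, called members, members of the fixed groups, and listed pathway and marker genes. Some other members that were not called were named too, namely NAC005, NAC050, NAC052 and NAC082. The members and lists were chosen with earlier results of these data known.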

Additional observations from a re-analysis of the deposited data

How the results depend on the processing

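Of the 20 called members, 16 kept the call under all 12 alternatives, and all 20 kept their sign. ATAF2, ANAC019, NAC003 and NAC099 lost it under at least 1. Members called higher and lower numbered 6 and 12 with DESeq2, 7 and 11 with total-count scaling, and 6 and 14 with RLE scaling, no filter, the 1 CPM minimum and the replicate block; leaving out 1 library gave 5 to 6 higher and 12 to 13 lower. Without a filter 76 members were tested. Over all genes, total-count scaling called 1364 lower, against 2149 with TMM, DESeq2 called 3673 in all, and leaving out 1 library called 3968 to 4150. The replicate block called 4643 genes (2469 higher, 2174 lower); the numbers mark no known shared origin.

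Signs turned only for genes that were not called. Leaving out 1 library gave log2 fold changes of -0.0029 to 0.0787 for ANAC078 (below 0 without green replicate 2 and, at -0.0018, without green replicate 3) and of -0.2547 to 0.1174 for CUC1 (above 0 without green replicate 1 and, at 0.0099, without non-green replicate 1). The ranges were -0.3786 to 0.2695 for CESA7 (below 0 without non-green replicate 3 and, at -0.1271, without green replicate 2) and -0.1346 to 0.1104 for CESA4 (below 0 without non-green replicate 2 and, at -0.0715, without green replicate 2). TRE1 reached 0.0086 with total-count scaling. The cause was not tested. Depth limits the scarce members, 29 of which had counts but were not tested.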
